A study of Mus musculus with 6 samples.

Results

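Interleukin-1 and interleukin-6 family cytokines were followed in CT26 tumors through 10 genes: the IL-1 ligands Il1a and Il1b, the receptor antagonist Il1rn, the decoy receptor Il1r2, the gp130 cytokines Il6, Il11, Lif and Osm, and the receptors Osmr and Il6st. They were chosen by gene symbol, and all 10 were present among the 23122 genes of the count table. Bulk RNA sequencing had been done on 3 tumors from mice given TP-18, described in the series title as a dual antagonist of the prostaglandin E2 receptors EP2 and EP4, given orally every day for 3 weeks at 50 mg/kg, and on 3 tumors from mice given vehicle for the same time. All animals were female BALB/c mice aged 6 to 8 weeks carrying a subcutaneous tumor grown from 500000 cells of CT26, a murine colorectal cancer line that comes from the same mouse strain, and they were randomized once tumors measured 100 to 200 mm3. The labels do not say that each tumor came from a separate mouse, so p-values cover the spread between these samples.

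IL-1α and IL-1β signal through the IL-1 receptor and the adaptor MyD88 to NF-kB and so induce further cytokines and chemokines, while the antagonist blocks that receptor and the decoy receptor binds IL-1 without signalling. The gp130 cytokines share the receptor chain gp130, encoded by Il6st, and act mainly through JAK kinases and STAT3. Prostaglandin E2 acting on EP2 and EP4 raises cyclic AMP and is known to induce Il6 and Il11 in fibroblasts and bone cells, and in tumors both cytokine families come from myeloid cells, fibroblasts and tumor cells.

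The 6 libraries held 34813482 to 36489081 counts. Levels are given in CPM, read counts relative to library size after TMM scaling. In bulk samples fewer cells of a type and less RNA per cell cannot be told apart. Among markers of colon epithelium and carcinoma, Krt20 measured 184 to 225 CPM in TP-18 and 263 to 342 CPM in vehicle tumors, whereas Epcam, Vil1 and Cdx2 stayed at or below 0.615 CPM in every tumor. Of the 4 markers of this list that were tested, 0 were higher and 1 lower (Krt20) by edgeR, and Cdh1, the epithelial cadherin, went the other way, at 3.52, 3.75 and 5.00 CPM in TP-18 against 1.05, 2.08 and 2.40 CPM in vehicle tumors (log2 change 1.15, adjusted p = 0.0647). By DESeq2, as at an unadjusted p under 0.05, 1 was higher and 2 lower. T cell markers passed the test upward in 9 of 9 genes and NK cell markers in 6 of 6, with summed levels of 80.9 to 88.4 CPM in TP-18 against 14.4 to 30.4 CPM in vehicle tumors for T cells; 3 of the 9 and all 6 NK genes did so whichever tumor was left out. Skeletal muscle markers passed upward in 7 of 10, summing to 72.2 to 139 CPM in TP-18 and 12.1 to 37.9 CPM in vehicle tumors, with 3 doing so whichever tumor was left out, and red blood cell markers downward in 4 of 5 tested, summing to 14.8 to 33.9 CPM in TP-18 and 66.3 to 395 CPM in vehicle tumors. Of those 5 red blood cell markers 0 passed whichever tumor was left out, each holding in 1 or 2 of the 6 fits, and 1 was lower by limma-voom and 5 by DESeq2 or at an unadjusted p under 0.05. Dendritic cell markers passed upward in 4 of 9, mast cell markers in 0 of 7 by edgeR (6 at an unadjusted p under 0.05, 3 by DESeq2, 0 by limma-voom), endothelial markers in 0 of 8 (0, 1 and 0) and, of the few tested, skin markers in 0 of 5 (1, 0 and 0) and adipocyte markers in 0 of 3 (1, 2 and 0). The part of these shifts in the results that follow was not tested.

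TP-18 was set against vehicle to ask how these transcripts differ in tumors of mice given the antagonist. Il11 fell to 0.45 of its vehicle level, with the groups apart, and was the 1 of 10 genes past the threshold, an adjusted p under 0.05 in the edgeR quasi-likelihood fit (Benjamini-Hochberg over 14189 genes tested). Of all genes tested 12.4% passed, 7.09% upward and 5.26% downward, so 1 of 10 is a share near the background. DESeq2 called 3 of the 10 lower (Il11, Lif and Il6), where it called 8.74% of all genes lower. Lif lay lower in all 3 TP-18 tumors as well, but missed the threshold. For Il1b, Il1r2, Osm and Osmr the direction depended on a single vehicle tumor, vehicle 3. Groups did not overlap for 2 of the 10 genes, Il11 and Lif, where 35.8% of all genes tested showed no overlap and 17.8% lay lower without overlap. All 10 passed the filter on low counts. Their median log2 change was -0.54, beside -0.01 for all genes tested. The sign of that median rested on vehicle 3: without it, only Il6, Il11 and Lif kept a negative log2 change.

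**Figure D1:**
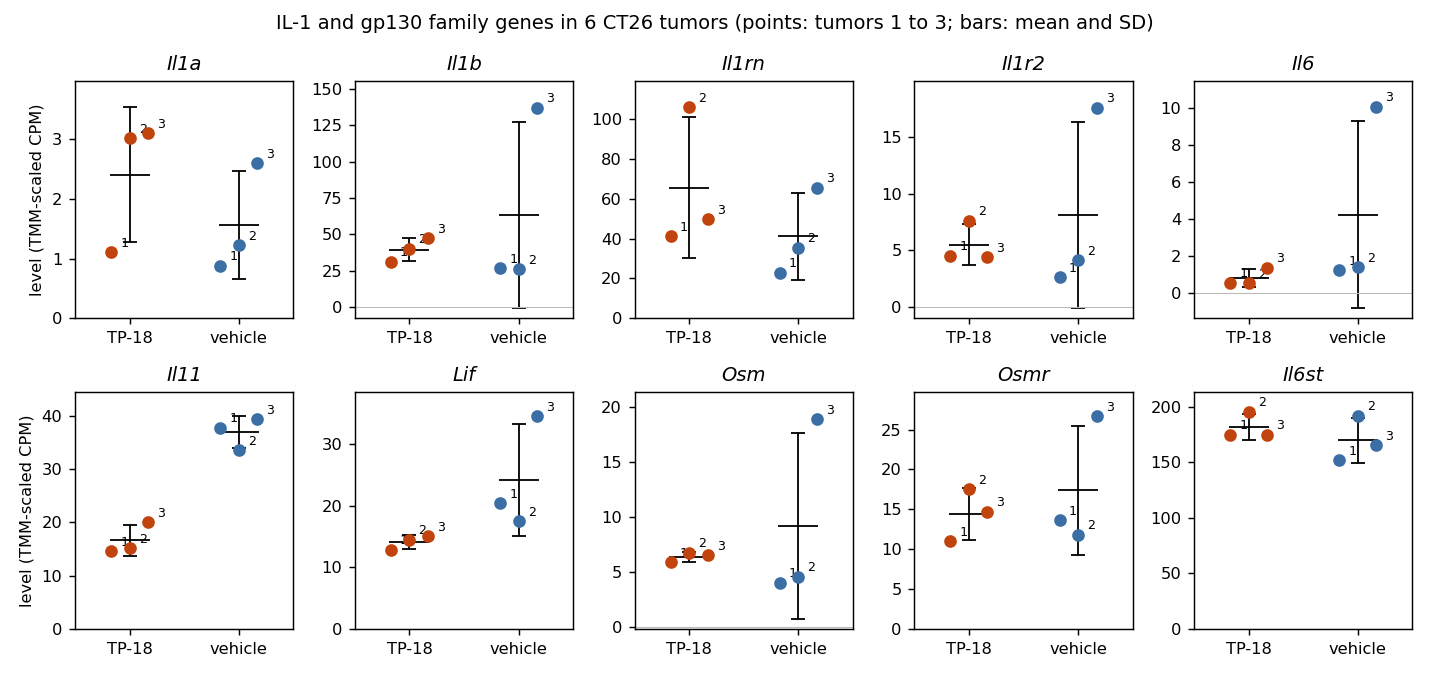
Level of each gene in TMM-scaled CPM (vertical axes, each with its own scale) in the 3 TP-18 and 3 vehicle tumors; points are tumors numbered 1 to 3, and bars give the mean and SD. Il11 and Lif separate the groups, while vehicle 3 stands above the 5 other tumors for Il1b, Il1r2, Il6, Lif, Osm and Osmr.

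Il11 (Entrez 16156, chromosome 7, 4772373 to 4782907 in GRCm38) encodes interleukin-11, a gp130 cytokine of stromal and tumor cells. It measured 14.6, 15.1 and 20.0 CPM in the TP-18 tumors, against 37.7, 33.5 and 39.4 CPM in the vehicle tumors. The highest TP-18 value lay well below the lowest vehicle value, and neither group spread by more than 1.37-fold. The means were 16.6 ± 2.99 CPM in TP-18 and 36.9 ± 3.02 CPM in vehicle tumors (SD, n = 3 each), on 1877 and 3679 reads. The log2 change was -1.15 ± 0.14 (SE; 95% interval -1.47 to -0.83), with an adjusted p of 0.00395 by edgeR. It passed whichever tumor was left out, at adjusted p-values of 0.00438 to 0.0189, and DESeq2 and limma-voom gave adjusted p-values of 6.84e-11 and 0.0049. An exact two-sided permutation test of this gene alone gave p = 0.1, the smallest that 3 against 3 allows. Tmem190, which overlaps Il11 in the annotation, had at most 3 reads in a tumor.

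Lif (Entrez 16878, chromosome 11, 4257568 to 4272514), leukemia inhibitory factor, acts through gp130 together with its own receptor. It measured 12.9, 14.5 and 15.02 CPM in the TP-18 tumors, against 20.5, 17.5 and 34.6 CPM in the vehicle tumors. The TP-18 tumors lay close together below all vehicle tumors, of which vehicle 3 was the highest. The log2 change was -0.78 ± 0.25 (SE; 95% interval -1.36 to -0.19), and the adjusted p of 0.0855 by edgeR missed the threshold, while DESeq2 called it at 0.0146. Without vehicle 3 the log2 change was -0.42, with an adjusted p of 0.0986.

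Il6 (Entrez 16193, chromosome 5, 30013114 to 30019975), the founding gp130 cytokine and an inducer of the acute-phase response, was scarce in 5 of the 6 tumors. It measured 0.565, 0.520 and 1.36 CPM in the TP-18 tumors, on 21, 19 and 53 reads, against 1.22, 1.41 and 10.1 CPM in the vehicle tumors, on 43, 46 and 322 reads. TP-18 3 lay between vehicle 1 and vehicle 2, so the groups overlapped, and vehicle 3 stood 7.14-fold above the next highest tumor. The log2 change was -2.37 ± 0.96 (SE; 95% interval -4.70 to -0.03), with an adjusted p of 0.162 by edgeR, against 0.0134 by DESeq2 and 0.261 by limma-voom. Without vehicle 3 it was -0.67, with an adjusted p of 0.43. The overlapping A230098N10Rik had at most 4 reads in a tumor.

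Osm (Entrez 18413, chromosome 11, 4236785 to 4241026), oncostatin M, a gp130 cytokine made largely by myeloid cells, lies 16.5 kb from Lif. It measured 5.86, 6.73 and 6.51 CPM in the TP-18 tumors, against 4.01, 4.56 and 18.9 CPM in the vehicle tumors. All 3 TP-18 tumors lay above vehicle 1 and vehicle 2 and below vehicle 3. The log2 change was -0.52 ± 0.62 (SE; 95% interval -2.04 to 1.00; edgeR adjusted p = 0.618), and without vehicle 3 it turned to 0.58, with an adjusted p of 0.109. Vehicle 3 thus decided the direction of Osm.

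The stretches before the annotated starts of Il11, Lif and Il6 are shown because these 3 gp130 cytokines had the most negative log2 changes of the 10 genes. Each is the 250 bases ahead of a RefSeq transcript start in GRCm38.p6, written 5′ to 3′ on the strand of the gene. Il11 is on the minus strand (chr7:4778142-4778391), in an intron of a longer Il11 transcript, and Lif (chr11:4257318-4257567) and Il6 (chr5:30012864-30013113) are on the plus strand. The Lif window overlaps an annotated exon of Lif, and the Il6 window lies outside the gene. Capitals mark the matches listed after the sequences.
Il11: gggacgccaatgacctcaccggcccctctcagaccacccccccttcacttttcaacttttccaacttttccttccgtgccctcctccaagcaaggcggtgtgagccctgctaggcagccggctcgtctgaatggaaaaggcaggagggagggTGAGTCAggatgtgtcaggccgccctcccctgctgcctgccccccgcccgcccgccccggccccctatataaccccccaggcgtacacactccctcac
Lif: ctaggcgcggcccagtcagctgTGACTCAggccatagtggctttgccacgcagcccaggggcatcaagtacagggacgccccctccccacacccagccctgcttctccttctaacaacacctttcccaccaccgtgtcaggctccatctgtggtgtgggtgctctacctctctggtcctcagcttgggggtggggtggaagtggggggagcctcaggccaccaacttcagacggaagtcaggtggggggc
Il6: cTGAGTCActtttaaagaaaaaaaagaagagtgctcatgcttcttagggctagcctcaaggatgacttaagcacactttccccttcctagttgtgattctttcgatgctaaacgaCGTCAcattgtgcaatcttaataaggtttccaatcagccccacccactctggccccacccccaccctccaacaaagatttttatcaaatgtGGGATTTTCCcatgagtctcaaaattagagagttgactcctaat

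All 3 windows hold the AP-1 motif TGANTCA, which Jun and Fos family factors bind, 98 bases before the start of Il11, 228 before that of Lif and 249 before that of Il6. The Il6 window also holds an NF-kB motif 44 bases before the start and, on the opposite strand, the CRE half-site TGACG, which CREB family factors bind, 135 bases before it. Both strands were searched for these 3 motifs and for the STAT motif TTCNNNGAA, and no 2 matches overlapped in these windows. Among 32851 annotated windows of this length in the mouse genome, 6.75% hold the AP-1 motif, 3.9% the NF-kB motif, 17.8% the CRE half-site and 7.02% the STAT motif. Of the 9 genes with an entry (Osm has none), 5 hold the AP-1 motif before at least 1 annotated start, namely Il1a, Il1rn, Il6, Il11 and Lif, and 1, Il1r2, holds the STAT motif. These 9 genes have 12 windows, so the counts per gene are not in the same unit as the shares per window above. The Il1b window and the window before the farther upstream Il11 start held none of the 4 motifs. A match describes letters only, and binding was not measured.

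The receptors differed less. Il6st (Entrez 16195, chromosome 13, 112464070 to 112506860), the shared chain gp130, measured 175, 195 and 175 CPM in the TP-18 tumors, against 152, 192 and 165 CPM in the vehicle tumors. The groups overlapped and no tumor stood apart, although in FPKM, the authors' reads per kilobase without TMM scaling, the TP-18 values of 32.0 to 35.3 lay above the vehicle values of 26.6 to 31.5. Its log2 change was 0.10 ± 0.10 (SE), and the 95% interval of -0.14 to 0.33 leaves room only for differences smaller than those of Il11 (edgeR adjusted p = 0.562). Osmr (Entrez 18414, chromosome 15, 6813568 to 6874968), which pairs with gp130 to bind oncostatin M, measured 11.02, 17.5 and 14.7 CPM in the TP-18 tumors, against 13.6, 11.8 and 26.7 CPM in the vehicle tumors. Vehicle 3 was again the highest, and the log2 change of -0.27 ± 0.34 (SE; edgeR adjusted p = 0.64) became 0.19 without it.

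Of the IL-1 ligands, Il1b (Entrez 16176, chromosome 2, 129364569 to 129371164) was much the more abundant. It measured 31.3, 40.1 and 47.3 CPM in the TP-18 tumors, against 26.5, 25.9 and 137 CPM in the vehicle tumors. Every TP-18 tumor lay above vehicle 1 and vehicle 2 and far below vehicle 3, which stood 2.9-fold above the next highest tumor. The log2 change of -0.68 ± 0.75 (SE; 95% interval -2.59 to 1.24; edgeR adjusted p = 0.596) became 0.60 without vehicle 3, with an adjusted p of 0.0644. Its antisense neighbour Il1bos had at most 15 reads in a tumor.

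Il1a (Entrez 16175, chromosome 2, 129299609 to 129310186), 54.4 kb from Il1b and coding for a form of IL-1 that is active without processing, was scarce. It measured 1.10, 3.01 and 3.10 CPM in the TP-18 tumors, against 0.882, 1.22 and 2.59 CPM in the vehicle tumors, on 272 and 154 reads in all. TP-18 2 and TP-18 3 exceeded all vehicle tumors, and TP-18 1 did not. The log2 change was 0.62 ± 0.52 (SE; edgeR adjusted p = 0.467), and 1.20 without vehicle 3 (adjusted p = 0.171). Unlike Il1b, Il1a kept a positive change in all 6 fits that left out a tumor, from 0.35 to 1.20, but none of these passed the threshold.

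Il1rn (Entrez 16181, chromosome 2, 24336860 to 24351491), the receptor antagonist, measured 41.2, 106 and 49.7 CPM in the TP-18 tumors, against 22.8, 35.3 and 65.5 CPM in the vehicle tumors. TP-18 2 was the highest of the 6 and vehicle 1 the lowest. The log2 change was 0.67 ± 0.54 (SE; 95% interval -0.68 to 2.03; edgeR adjusted p = 0.458), 0.14 without TP-18 2 and 1.19 without vehicle 3. Il1r2 (Entrez 16178, chromosome 1, 40084692 to 40125230), the decoy receptor, measured 4.49, 7.58 and 4.38 CPM in the TP-18 tumors, against 2.62, 4.10 and 17.6 CPM in the vehicle tumors. It shared the order of Il1b in that vehicle 3 stood above all other tumors, and its log2 change of -0.56 ± 0.75 (SE; edgeR adjusted p = 0.658) became 0.72 without vehicle 3.

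**Figure D2:**
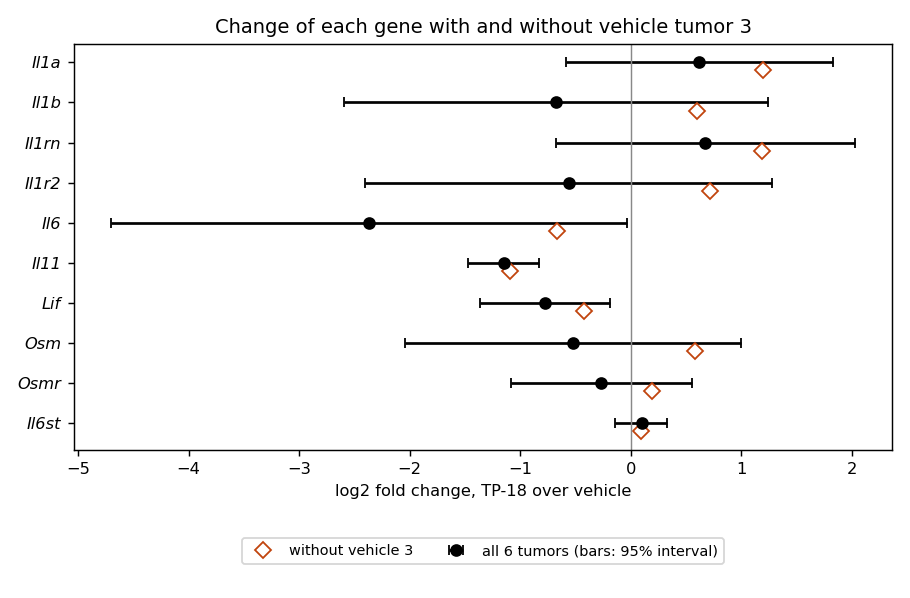
Log2 fold change of TP-18 over vehicle (horizontal axis) for the 10 genes, with all 6 tumors and the 95% interval of the fit (filled points and bars) and without vehicle 3 (open diamonds). Il11 is at -1.15 and -1.09, whereas Il1b, Il1r2, Osm and Osmr cross zero.

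Vehicle 3 recurred as the highest tumor. It was so for 7 of the 10 genes, as it was for 20.8% of all genes tested, but for Il11 it exceeded vehicle 1 by little. It stood at least 2-fold above each of the other 5 tumors for 4 of the 10, Il1b, Il1r2, Il6 and Osm, which held for 1.11% of all genes tested; this limit was chosen after the values were seen. The fitted direction differed without vehicle 3 for 4 of the 10, Il1b, Il1r2, Osm and Osmr, and for 9.35% of all genes tested.

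Summed neutrophil markers were also highest in vehicle 3. Their 15 genes summed to 115, 249 and 169 CPM in the TP-18 tumors, against 68.6, 112 and 461 CPM in the vehicle tumors, with vehicle 3 the highest and vehicle 1 the lowest of the 6. Of 11 tested, 8 were highest in vehicle 3 and 0 passed the threshold by edgeR, DESeq2 or limma-voom, nor did any have an unadjusted p under 0.05 (0 of 11). Mmp8, Mmp9 and Clec4e instead peaked in TP-18 2, at 7.06, 56.2 and 30.0 CPM, against 2.94, 20.1 and 19.8 CPM in vehicle 3. S100a9, an abundant neutrophil protein, measured 27.0, 36.2 and 36.8 CPM in the TP-18 tumors, against 15.2, 29.7 and 196 CPM in the vehicle tumors. S100a9 and S100a8, the latter at 68.4 CPM, made the largest parts of the sum in vehicle 3. Ly6g, a defining surface marker, had at most 7 reads in a tumor, and the granule genes Camp, Ngp and Ltf stayed at or below 1.15 CPM. Ly6g, Camp, Ngp and Ltf were likewise highest in TP-18 2. The sum of 10 fibroblast markers, carried by the collagen genes, was highest in vehicle 3 too, at 2751, 4348 and 3877 CPM in the TP-18 tumors and 2391, 2525 and 6567 CPM in the vehicle tumors, but only 5 of the 10 (Col1a1, Col1a2, Col3a1, Dcn and Lum) peaked there. The other 5 (Pdgfra, Pdgfrb, Postn, Fap and Thy1) peaked in a TP-18 tumor, and Pdgfrb, a receptor of fibroblasts and pericytes, was lowest in vehicle 3, at 80.6, 83.2 and 95.3 CPM in the TP-18 tumors and 82.5, 73.2 and 43.0 CPM in the vehicle tumors. Macrophage and monocyte markers summed to 2291 to 2636 CPM in TP-18 and 1155 to 1713 CPM in vehicle tumors. Of these markers 1, Mrc1, was highest in vehicle 3. It measured 167, 122 and 195 CPM in the TP-18 tumors and 180, 184 and 392 CPM in the vehicle tumors (log2 change -0.64, edgeR adjusted p = 0.303). No fibroblast marker passed by edgeR (0 of 10; at an unadjusted p under 0.05, 1 was higher and 1 lower, as by DESeq2). Of 15 macrophage and monocyte markers 5 passed upward by edgeR, 10 by DESeq2, 7 by limma-voom and 10 at an unadjusted p under 0.05. The part of these cells in the levels of Il1b, Il1r2, Il6 and Osm was not tested.

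**Figure D3:**
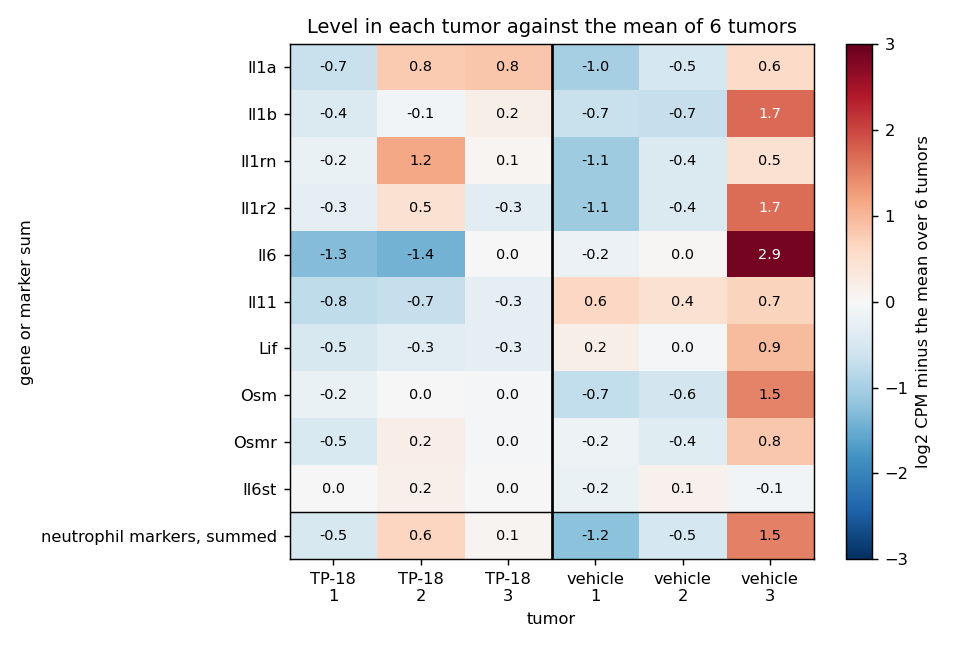
Log2 level of each gene, and of the summed neutrophil markers, in each tumor minus its mean over the 6 tumors (color and number; columns are tumors, TP-18 left of the line). Vehicle 3 is high for Il6 at 2.87, Il1b at 1.70, Il1r2 at 1.67 and Osm at 1.5, beside 1.52 for the neutrophil markers, while Il11 splits by group.

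Per length of transcript, in the authors' FPKM, Il6st, Il1b and Il1rn had the highest means of the 10 in both groups. In TP-18 tumors Il6st averaged 33.3 ± 1.75, Il1rn 24.5 ± 12.8 and Il1b 22.02 ± 4.69 FPKM (SD, n = 3), and neighbours in that order overlapped. Il11 followed at 6.37 ± 1.25 FPKM, below every value of Il1b, and then Osm at 3.51, Osmr at 2.79, Lif at 2.71 and Il1r2 at 2.14 FPKM, with neighbours overlapping. Il1a at 1.28 and Il6 at 0.754 FPKM were the lowest and overlapped each other. In vehicle tumors the order began with Il1b at 31.2 ± 30.7 FPKM, carried by 66.7 FPKM in vehicle 3, and Il6st at 28.2 ± 2.85 FPKM, and Il1rn at 13.8 ± 6.87 and Il11 at 12.8 ± 1.19 FPKM overlapped. Osm, Lif, Il6, Osmr and Il1r2 lay between 4.48 and 2.81 FPKM on average and overlapped, and Il1a was lowest at 0.745 FPKM. Il11 was thus the most abundant gp130 cytokine of the 4 on average in both groups, and in each group all of its FPKM values exceeded those of Il6, Lif and Osm.

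Ratios of 2 transcripts within a tumor do not depend on library scaling. The log2 ratio of Il1b to Il1rn reads, ligand to antagonist, was -0.40, -1.40 and -0.07 in the TP-18 tumors, against 0.22, -0.45 and 1.07 in the vehicle tumors. The groups overlapped, with a difference of -0.90 and an exact two-sided permutation p of 0.3. The log2 ratio of Osm to Il6 reads was 3.35, 3.66 and 2.25 in the TP-18 tumors, against 1.70, 1.68 and 0.91 in the vehicle tumors, with no overlap and an exact permutation p of 0.1, the smallest possible; adjusted over the 5 ratios computed it was 0.5. In this ratio vehicle 3 lay farthest from the TP-18 tumors. The log2 ratios of Il1b to Il1r2 and of Il1a to Il1rn averaged 2.87 and -4.78 in TP-18 tumors and 2.98 and -4.72 in vehicle tumors, with differences of -0.11 and -0.06 (exact permutation p of 0.8 and 1.0). That of Osm to Lif averaged -1.15 ± 0.05 in TP-18 and -1.72 ± 0.76 in vehicle tumors (exact permutation p = 0.4).

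Over the 6 surrounding lists, 79 genes that are not members were tested, of which 15 were higher and 4 lower. Of all genes tested, 7.09% were higher and 5.26% lower, and the counts of single lists below have the same background. On log2(FPKM + 1), 19 of 80 were higher and 2 lower, in a fit that called 1342 of all genes higher and 213 lower. Among the other gp130 ligands and receptors, of 9 tested genes 3 were higher and 1 lower, with a median log2 change of 0.65. Clcf1, a gp130 cytokine of the ciliary neurotrophic factor group, fell with Il11, at 9.49 ± 1.82 CPM in TP-18 and 16.4 ± 2.64 CPM in vehicle tumors (log2 change -0.79 ± 0.18 SE, edgeR adjusted p = 0.0313), but passed in 2 of the 6 fits that left out a tumor and not without vehicle 2, vehicle 3, TP-18 1 or TP-18 3, where the adjusted p was 0.0551, 0.0702, 0.0848 and 0.0987, nor in the FPKM fits (0.0616 to 0.132). Both subunits of interleukin-27 rose: Il27 had 18, 28 and 30 reads in the TP-18 tumors, against 2, 2 and 5 in the vehicle tumors (log2 change 2.85 ± 0.54 SE, edgeR adjusted p = 0.0177), and Ebi3 averaged 3.86 ± 0.83 CPM in TP-18 and 1.67 ± 0.53 CPM in vehicle tumors (1.21 ± 0.31 SE, adjusted p = 0.0431). Il27ra, its receptor, measured 4.65, 5.53 and 5.00 CPM in the TP-18 tumors, against 1.34, 1.81 and 1.44 CPM in the vehicle tumors, rose by 1.73 ± 0.24 (SE), and passed whichever tumor was left out. Il27 lost its call without vehicle 2 (adjusted p = 0.0812), TP-18 2 (0.0592) or TP-18 3 (0.073), and Ebi3 without any tumor but vehicle 1 (up to 0.14 without vehicle 2), nor did Ebi3 pass on FPKM with no filter (0.0741). Il6ra, the interleukin-6 receptor, had a log2 change of 0.43 ± 0.12 (SE) and lay at the threshold: it missed by edgeR (adjusted p = 0.0551) and passed by DESeq2 (0.0244), with upper-quartile scaling (0.0426), with no filter (0.0439), in the FPKM fits (0.0211 to 0.0465) and without vehicle 3 (0.0369). Lifr had a log2 change of 0.72 ± 0.45 (SE; edgeR adjusted p = 0.324), and passed without vehicle 3, at 1.38 (0.0316). Il11ra1, the binding chain for interleukin-11, had one of 0.37 ± 0.18 (SE; 0.209) and passed in no fit run.

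Downstream of gp130, 4 of 11 signal transduction and feedback genes were higher and 0 lower by edgeR, by DESeq2 or at an unadjusted p under 0.05, with a median log2 change of 0.19. Socs1 and Cish, feedback inhibitors of cytokine receptors, rose by 1.08 ± 0.19 and 1.11 ± 0.24 (SE), and the kinase Tyk2 rose by 0.48 ± 0.09 (edgeR adjusted p = 0.0138, 0.0263 and 0.0158). Socs1 lost its call without vehicle 2 (edgeR adjusted p = 0.0546), Cish without vehicle 2 or any one TP-18 tumor (up to 0.11) and on FPKM with no filter (0.0525), and Tyk2 without vehicle 2, TP-18 1 or TP-18 2 (up to 0.0651). Stat3 itself averaged 177 ± 12.2 CPM in TP-18 and 179 ± 24.1 CPM in vehicle tumors (edgeR adjusted p = 0.953), and Socs3, its feedback inhibitor, 110.2 ± 8.93 and 129 ± 33.2 CPM (0.428). Of 18 STAT3 target genes, which include Osmr and Il6st, 1 was higher and 3 lower, with a median of -0.22. Vehicle 3 was the highest tumor for 13 of the 18, beside 20.8% of all genes tested. Junb, an AP-1 subunit, measured 159, 160 and 184 CPM in the TP-18 tumors, against 278, 251 and 307 CPM in the vehicle tumors, and fell by 0.73 on the log2 scale (SE 0.10, edgeR adjusted p = 0.00614), whichever tumor was left out. Timp1, an inhibitor of matrix metalloproteinases, had a log2 change of -0.72 ± 0.14 (SE) and Cebpd, a transcription factor of inflammation, one of -0.58 ± 0.11, both past the threshold, at adjusted p-values of 0.0205 and 0.0173. Timp1 lost its call without TP-18 1 or TP-18 2, and Cebpd without vehicle 2 or any one TP-18 tumor, at adjusted p-values up to 0.0635 and 0.0678. On FPKM, Timp1 passed in none of the 3 fits (0.057 to 0.132), and Cebpd missed in the fit with no filter (0.0691). Serpina3g, a serine protease inhibitor that interferon gamma also induces, rose by 3.23 ± 0.25 (SE; edgeR adjusted p = 0.00182).

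**Figure D4:**
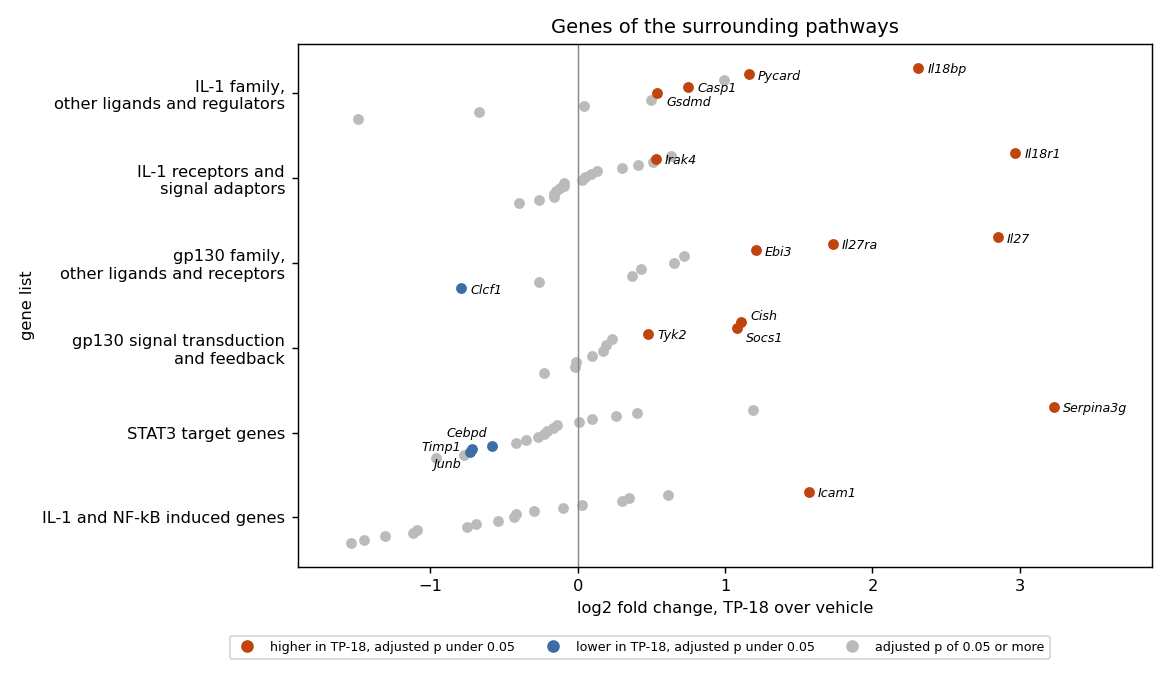
Log2 fold change of TP-18 over vehicle (horizontal axis) for tested genes of 6 surrounding lists (rows), 1 gene left out; colored and named points passed an adjusted p of 0.05, gray points did not. Il27, Il27ra and Ebi3 lie on the opposite side from Clcf1, and Junb, Timp1 and Cebpd lie below zero.

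In the IL-1 pathway, 4 of 9 other ligands and regulators were higher and 0 lower by edgeR, with a median log2 change of 0.54 (1 was lower at an unadjusted p under 0.05, and 1 by DESeq2). The gene lower at an unadjusted p under 0.05 was Il33, an IL-1 family ligand. Il33 averaged 18.5 ± 3.81 CPM in TP-18 and 51.9 ± 32.1 CPM in vehicle tumors, with no overlap. Its log2 change was -1.49 ± 0.45 (SE; edgeR adjusted p = 0.0935), and -0.84 without vehicle 3, its highest tumor. Casp1, the protease that matures IL-1β and interleukin-18, measured 76.5, 83.6 and 77.0 CPM in the TP-18 tumors, against 50.4, 41.1 and 49.0 CPM in the vehicle tumors, and rose by 0.75 ± 0.10 (SE; edgeR adjusted p = 0.00491), whichever tumor was left out. Pycard, the adaptor that activates it, and Gsdmd, the pore through which IL-1β leaves cells, rose by 1.16 ± 0.19 and 0.54 ± 0.13 (SE). Pycard lost its call without TP-18 3 (edgeR adjusted p = 0.0508), and Gsdmd without vehicle 2 or any one TP-18 tumor (up to 0.107). Il18bp, which neutralizes interleukin-18, rose by 2.31 ± 0.45 (SE; edgeR adjusted p = 0.0312), and lost its call without vehicle 1 (0.0835), vehicle 2 (0.106) or TP-18 1 (0.0624), with no filter on counts (0.089) and on FPKM with no filter (0.0608).

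Among 18 IL-1 receptors and signal adaptors 2 were higher and 0 lower by edgeR, by DESeq2 (3 higher) or at an unadjusted p under 0.05 (5 higher), with a median of 0.04. Il18r1, a chain of the interleukin-18 receptor of T and NK cells, rose to 7.36 ± 0.89 CPM in TP-18 tumors, against 0.94 ± 0.27 CPM in vehicle tumors (log2 change 2.97 ± 0.27 SE, edgeR adjusted p = 0.00176). Its partner chain Il18rap was far more abundant and did not differ. Il18rap measured 143, 145 and 158 CPM in the TP-18 tumors, against 137, 156 and 137 CPM in the vehicle tumors. Its log2 change was 0.05 ± 0.08 (SE; edgeR adjusted p = 0.71). The ligand Il18 had a log2 change of 0.99 ± 0.47 (SE; edgeR adjusted p = 0.198), with overlapping groups. Irak4, a kinase after MyD88, rose by 0.53 ± 0.13 (SE). This held in 1 of the 6 fits that left out a tumor, that without vehicle 1. Adjusted p-values were 0.0643 to 0.123 in the others and 0.077 on FPKM with no filter. The IL-1 receptor Il1r1 averaged 94.8 ± 7.72 CPM in TP-18 and 103 ± 13.4 CPM in vehicle tumors (edgeR adjusted p = 0.519), and its accessory chain Il1rap 30.5 ± 2.70 and 29.8 ± 2.55 CPM (0.868). Of 17 tested genes that IL-1 and NF-kB induce, 1 was higher and 0 lower by edgeR, with a median of -0.43. Vehicle 3 was the highest tumor for 12 of the 17, beside 20.8% of all genes tested. At an unadjusted p under 0.05, 3 were lower, and 3 were lower by DESeq2. Icam1, an adhesion molecule for leukocytes that interferon gamma also induces, rose by 1.57 ± 0.17 (SE; edgeR adjusted p = 0.00284). Ptgs2, the cyclooxygenase that begins prostaglandin E2 synthesis, measured 152, 280.2 and 238 CPM in the TP-18 tumors, against 371, 418 and 664 CPM in the vehicle tumors, with no overlap, but its log2 change of -1.12 ± 0.31 (SE) had an edgeR adjusted p of 0.0669, against 0.000119 by DESeq2, 0.0408 by limma-voom and 0.0425 with non-robust moderation.

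Genes whose level over the 6 tumors was most like that of a member were named by Pearson's r of log2 CPM, which describes 6 points that share their libraries and was not tested, the genes having been picked for it. Closest to Il11 were Cmc1, Ccdc59 and Soat2, each at r = 0.996, and all lower in TP-18 tumors. Soat2, which esterifies cholesterol, measured 17.1, 19.6 and 23.8 CPM in the TP-18 tumors, against 43.6, 37.1 and 43.0 CPM in the vehicle tumors. Closest to Il1b were Rab44, Polb and Osm, at r = 0.992, 0.985 and 0.984 over 6 tumors and 0.969, 0.956 and 0.885 over the 5 tumors without vehicle 3.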

How the data were processed

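Bulk RNA sequencing of 3 TP-18 and 3 vehicle CT26 tumors was analysed. The deposited count table holds the authors' whole-number counts per gene, not normalized; fastp, HISAT2, HTSeq and the build GRCm38 are named per the submitters' processing notes, while the sources used here do not give versions, strandedness or the counting of multimapping reads. The deposited FPKM values were made by the authors from these counts: in 12982 genes each value follows from the count, the library's total and one gene length, which came out whole within 0.01 bases.

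Groups and replicate numbers were taken from the sample titles. Genes were kept by filterByExpr (minimum count 10, minimum total 15), which left 14189, and tested in R 4.3.3 with edgeR 4.0.16 (TMM scaling, group as the only term, robust quasi-likelihood F test, two-sided), TP-18 over vehicle, with Benjamini-Hochberg adjustment over all genes tested and a threshold of 0.05. The SE was derived from the F statistic, and CPM are given as mean ± SD. Ratios of counts (0.5 added) were tested by exact permutation. Alternatives were RLE and upper-quartile scaling, other filters, non-robust moderation, DESeq2 1.42.0, limma-voom and limma 3.58.1 on log2 FPKM, a replicate block, a threshold of 0.10, and leaving out each tumor. Gene models and promoter windows came from RefSeq for GRCm38.p6 and were matched by Entrez ID and symbol; transcript structure came from GENCODE M21.

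The members, the 6 pathway lists and the 13 marker lists were chosen with earlier results of these data known. The 222 listed symbols gave 213 matches by symbol and 2 by synonym. Named genes are the 10 members, 11 fixed pathway genes, and up to 4 called genes of a pathway list by smallest p. Marker genes, Il33, Il18rap and the other genes shown by value alone were named after their values were seen. Of the genes counted in the pathway lists 1 is not reported by name. The fitting procedure was checked on simulated counts.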

Additional observations from a re-analysis of the deposited data

How the results depend on the processing

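Il11 passed the threshold under every alternative run, with log2 changes of -0.91 (FPKM with 1 added) to -1.31 (without TP-18 3). Of the 10 members 1 passed in all these fits but DESeq2, where 3 did (Il11, Lif and Il6), and a threshold of 0.10, where 2 did (Il11 and Lif). When a tumor was left out, the log2 change ran from -1.04 to 0.60 for Il1b, -0.97 to 0.72 for Il1r2, -0.87 to 0.58 for Osm and -0.47 to 0.19 for Osmr, each positive without vehicle 3 alone, and it reversed for Il1r2 to 0.01 on log2(FPKM + 0.1); the cause was not tested. Of the 79 tested pathway genes that are not members, 19 passed, and 9 (without vehicle 2) to 26 (without vehicle 1) did when a tumor was left out. The difference in the Il1b to Il1rn ratio ran from -1.27 to -0.51 in those fits. Changes near 0 also reversed: Il1r1 to 0.03 in all FPKM fits, Stat3 to 0.01 with upper-quartile scaling and to 0.13 or 0.14 in FPKM fits, and, leaving out a tumor, Il1rap (-0.04 to 0.12; -0.00 without vehicle 2), Socs3 (-0.36 to 0.01) and Stat3 (-0.10 to 0.06). FPKM with 0.1 added moved the median of all genes to 0.13 (log2).

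The labels do not pair tumors by replicate number, and deviations of equal-numbered tumors from their group means correlated at 0.24, -0.08 and -0.04. With the replicate block 1 member and 15 pathway genes passed, the genes called overall numbered 547 higher and 231 lower in place of 1006 and 747, and the Il1b to Il1rn difference was -0.90. Of the pathway genes named, Clcf1 (adjusted p = 0.0696), Ebi3 (0.0739), Cish (0.0662), Gsdmd (0.0682), Il18bp (0.0942) and Irak4 (0.0662) then missed the threshold and Ptgs2 passed it (0.0401). Over all genes, 411 higher and 112 lower passed without vehicle 2, and 1464 and 1240 by DESeq2. With 3 tumors a group, a difference within the spread of vehicle tumors, as for Il1b, Il6 and Osm, could not be resolved.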
